A study of Sus scrofa domesticus with 4 samples.

Results

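The genes described here encode subunits of heterotrimeric G proteins, with GNAS, the stimulatory alpha subunit, at their centre. They were chosen by name: every non-control probe whose RefSeq accession maps to a pig gene symbol for GNAS, a GNAI, GNAO, GNAQ or numbered GNA alpha subunit, a numbered GNB beta subunit or a numbered GNG gamma subunit. The rule found 7 genes with 25 probes, out of 3029 named genes and 43603 probes on the array. GNAS had 16 of these probes, GNAI2 had 3, GNA14 had 2, and GNAI3, GNAQ, GNA11 and GNG12 had 1 each. No beta subunit and no GNAO probe was reached by a RefSeq accession. Of the 25 probes, 23 were bright enough to be tested, and the other 2 were GNAS probes that were well above background in 0 of 8 readings.

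The samples were slices of porcine endometrium, the lining of the uterus, from the middle of the uterine horns of 4 mature gilts (Large White x Polish Landrace, 7-8 months old) killed on days 15 to 16 of pregnancy. Slices were kept for 2 h in medium and then for 24 h either with no treatment or with orexin A (OXA), a neuropeptide, at 10 nM per the treatment label, while the design text of the series gives the same number in µM. Each of 4 Agilent arrays carried 1 OXA-treated RNA and 1 control RNA in different dyes, so every value is a log2 ratio of OXA over control on 1 array, and n = 4 arrays. By its sample labels, the OXA-treated RNA carried Cy5 on arrays 1 and 3 and Cy3 on the other two, but the labelling protocol has Cy5 for OXA throughout. Whether 1 gilt gave both RNAs of a pair is not stated, so a p-value here rests on spread between arrays, whatever its source. In limma this spread is what remains after a dye effect is taken out. It is also drawn toward the spread of all probes.

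A heterotrimeric G protein is made of an alpha, a beta and a gamma subunit and sits on the inner face of the cell membrane. A receptor with a bound ligand makes the alpha subunit trade GDP for GTP, after which alpha and the beta-gamma pair separate and act on their own effectors. Gs alpha (GNAS) stimulates adenylyl cyclase and so cyclic AMP, Gi alpha (GNAI genes) inhibits it, and the Gq family (GNAQ, GNA11, GNA14) activates phospholipase C beta and calcium release. In the endometrium cyclic AMP is known for its part in stromal differentiation, and prostaglandin and oxytocin receptors signal through these proteins. The receptors of orexin are G protein coupled as well. GNAS is also known as an imprinted locus that makes several transcripts from alternative first exons.

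Non-control probes well above background made up 62.3% to 74.5% of the array in Cy5. In Cy3 the share ran from 52.1% to 56.7%, except on array 1 with 31.7%. Array 1 came from a different slide, scanned 71 days apart from the rest. Saturation was not seen on any spot, and precision is limited by having 4 arrays. Over the 26927 probes tested the correlation of log2 ratios between arrays ran from -0.29 (arrays 3 and 4) to 0.42 (arrays 1 and 2). Of the 3029 named genes 2407 were tested. Among markers of the labelled tissue, all 6 epithelial ones on the array (among them EPCAM, CDH1 and KRT8) were tested. So were 3 of 4 stromal markers (LUM, DCN and COL1A2), and THY1 was not. Smooth muscle markers (5 of 5) and T and NK lymphocyte markers (7 of 8) passed about as often, so these counts do not identify the tissue. Of 7 genes of conceptus trophoblast on the array 5 were tested, and CDX2 and CYP17A1 were not. In limma's fit 0 of 26927 probes passed an adjusted p of 0.05, and 500 (1.86%) had an unadjusted p under 0.05.

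The brightest GNAS probe, A_72_P566204, was lower in the OXA-treated RNA on each array after loess, though not with median centring, where the fitted value was 0.075. Its log2 ratios on arrays 1 to 4 were -0.38, -0.28, -0.26 and -0.18. All 4 arrays lay below 0, the lowest value was on array 1 and the highest on array 4, and both dye orientations were represented at either side of the mean. The fitted value was -0.27 (SE 0.06, 95% interval -0.44 to -0.11), a fold of 0.827, and the spread over arrays was 0.082 (SD, n = 4). Its unadjusted p in limma was 0.0109, but over all probes it did not pass (adjusted p = 0.763). In the same fit 0.847% of all probes had an unadjusted p under 0.05 with a lower value, and 4.26% were below 0 on 4 of 4 arrays.

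Before any correction this probe was one of the brightest on the array, and its colour followed the dye and not the treatment. The uncorrected median intensity of the OXA-treated RNA was 92115 (array 1) and 99203 (array 3) when labelled with Cy5, and 19313.5 (array 2) and 27170 (array 4) when labelled with Cy3. The control RNA had 52712 and 19833 in Cy3 on arrays 1 and 3, and 86003.5 and 103800 in Cy5 on arrays 2 and 4. Cy5 was thus brighter than Cy3 by 1.75, 4.45, 5.00 and 3.82 times on arrays 1 to 4, and it was the brighter dye for all 14 tested GNAS probes on each array. Loess, which takes out a dye bias that varies with brightness, removed this difference, and what was left is the small ratio given above. With each array only centred on its median, the log2 ratios of OXA over control of this probe were 0.94, -1.36, 2.23 and -1.51, which split by dye.

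**Figure D1:**
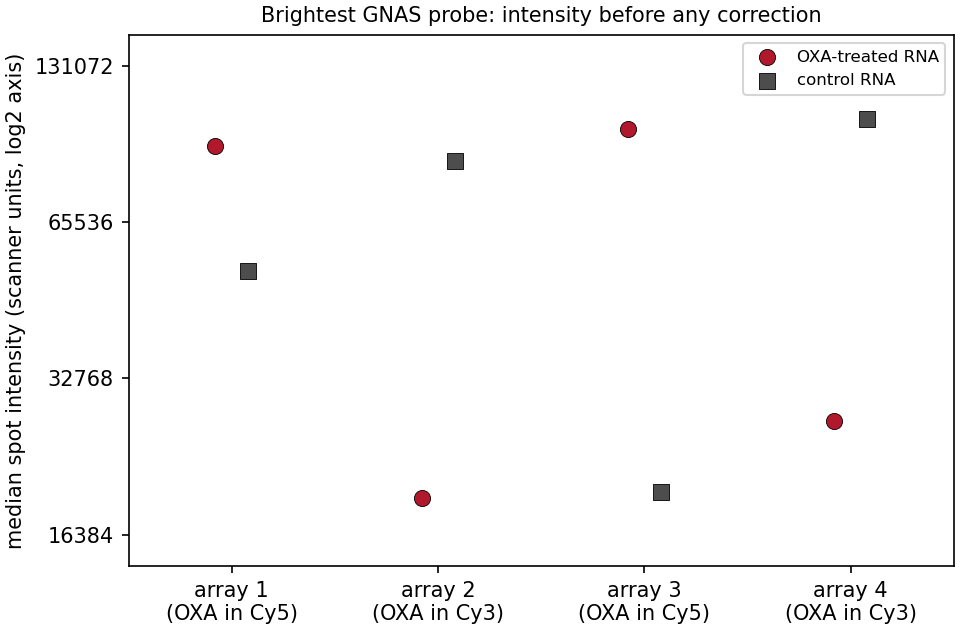
Uncorrected median spot intensity of the brightest GNAS probe (log2 axis, scanner units) for the OXA-treated RNA (circles) and the control RNA (squares) on each of 4 arrays. The RNA in Cy5 is the brighter one on every array, by 1.75 to 5.00 times, whichever treatment it had.

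The other 13 tested GNAS probes were below 0 in the fit too, as 43% of all probes were, but by less, and none of them was below 0 on all 4 arrays. Their fitted values ran from -0.23 to -0.045, with a mean of -0.12, so the brightest probe gave the largest value of the 14. The spread of the fitted values over the 14 probes was 0.064 (SD), against a median of 0.22 for the spread of a single probe over the 4 arrays. Of the 14 probes 1 was below 0 on 4 arrays, 7 on 3 arrays and 6 on 2 arrays. Only the brightest had an unadjusted p under 0.05 in limma, and the next lowest was 0.0775. Adjusted p-values of the 14 probes were 0.763 to 0.861. The probes share 1 gene and the same 8 RNAs, so they are repeat readings of GNAS and not replicates of the treatment.

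The direction of the GNAS probes depended on the array. On array 2 all 14 were below 0, with a median of -0.29 and a range of -0.55 to -0.15. On array 1 the count below 0 was 11, with a median of -0.13 (-0.55 to 0.067). On array 3 it was 9, with a median of -0.23 (-0.46 to 0.36). On array 4 only 3 were below 0, and the median was 0.11 (-0.18 to 0.21). Array 4 therefore stood on the other side of 0 for most probes, while the brightest probe had its own value of -0.18 there, the lowest of the 14. Averaged over the 14 probes, GNAS was -0.18, -0.30, -0.12 and 0.068 on arrays 1 to 4. The mean of these was -0.13 ± 0.15 (SD, n = 4), and the exact two-sided sign-flip permutation test over arrays gave p = 0.25. The smallest p that 4 arrays allow is 0.13 after rounding, so this test could not reach 0.05. With the mean over probes in place of the brightest probe, limma gave -0.13 (SE 0.088, adjusted p = 0.869), beside -0.27 for the brightest probe. That adjusted p is over the 2407 named genes and not over all probes.

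**Figure D2:**
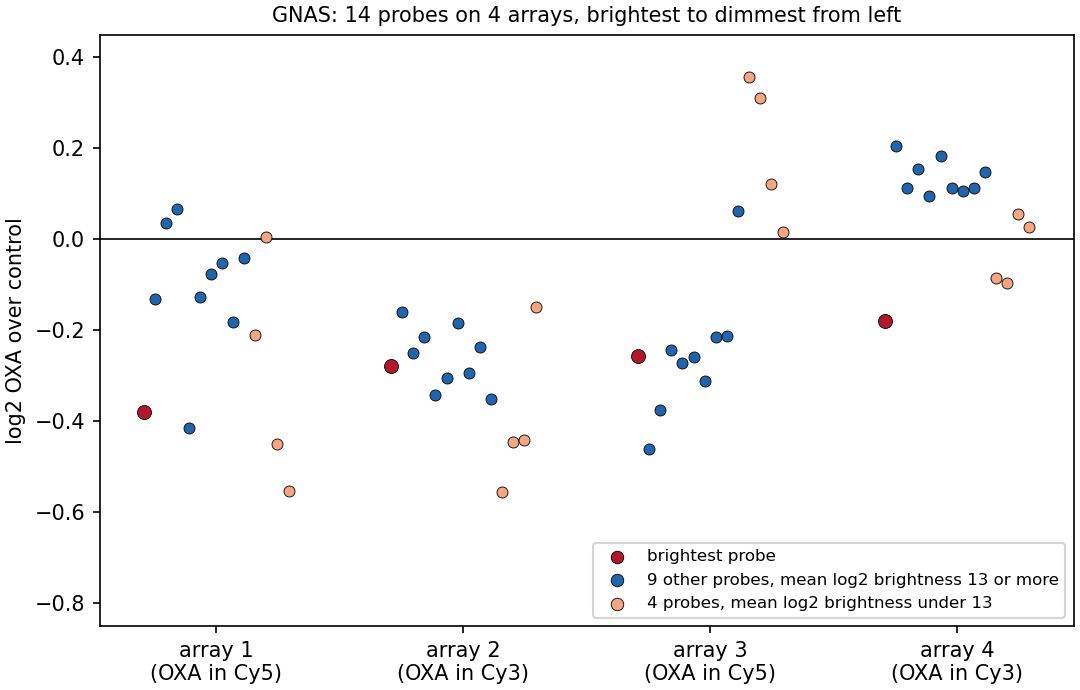
Log2 ratio of OXA over control of each of the 14 tested GNAS probes on each of 4 arrays, ordered from brightest (left) to dimmest within an array. The brightest probe lies at -0.38 to -0.18 on every array, while 9 of the 10 probes of mean log2 brightness 13 or more lie above 0 on array 4, and the 4 dimmer probes lie above 0 on array 3.

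Arranged by brightness, the GNAS probes made 2 sets that differed by array. This split was made after the values were seen and is given as a description. In the 10 brighter probes (mean log2 brightness of 13 or more) array 3 had a median of -0.26, with 9 of 10 below 0, and array 4 a median of 0.11, with 1 of 10 below 0. In the 4 dimmer probes array 3 had a median of 0.22, with 0 of 4 below 0, and array 4 a median of -0.028. On arrays 1 and 2 both sets had medians below 0, -0.10 and -0.26 in the brighter set and -0.33 and -0.44 in the dimmer set. The fitted medians of the sets were -0.12 and -0.14. Brightness depends on the probe as well as on the transcript.

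The array names the GNAS probes by 2 RefSeq transcripts. Of the tested probes 12 carry NM_001130215, with fitted values of -0.27 to -0.045 and a median of -0.12. The 2 probes of NM_001171985 had -0.18 and -0.16. Both of the latter were in the dimmer set, with -0.45 and -0.55 on array 1, -0.44 and -0.15 on array 2, 0.12 and 0.016 on array 3, and 0.056 and 0.028 on array 4. The values of the 2 transcripts overlapped, and the difference between them was not tested.

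Among the alpha subunits that inhibit adenylyl cyclase, GNAI2, the main Gi alpha of many tissues, had no common direction over arrays. Its brightest probe was 0.18, -0.40, 0.13 and 0.0028 on arrays 1 to 4, with a fitted value of -0.021 (SE 0.090, limma adjusted p = 0.923). Array 2 was low, arrays 1 and 3 were above 0, and array 4 was near 0. The 95% interval was -0.27 to 0.23. Its other 2 probes gave -0.088 and -0.19, and all 3 agreed on array 2 (-0.50 to -0.40) and array 3 (0.076 to 0.13). On array 1 they did not, running from -0.40 to 0.18. Its dye coefficient was 0.18, larger than its fitted OXA value.

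GNAI3, another Gi alpha, was the least steady of the 7 genes. Its 1 probe was -0.87, 0.33, 0.081 and 0.0063 on arrays 1 to 4. Array 1 alone was below 0, and the spread was 0.52 (SD, n = 4). The fitted value was -0.11 (SE 0.19, limma adjusted p = 0.809), and without array 1 it was 0.12.

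Of the 3 Gq family genes, which act on phospholipase C beta, GNA11 had a probe well above background in 8 of 8 readings, while those of GNAQ and GNA14 were dim. GNA11 was -0.34 and -0.34 on arrays 1 and 2 and -0.011 and 0.0035 on arrays 3 and 4, so it was low on the first 2 arrays and at 0 on the others. Its fitted value was -0.17 (SE 0.10, limma adjusted p = 0.763), and it was -0.090 without array 1, -0.086 without array 2 and -0.26 without array 4. GNAQ was -0.13, -0.037, -0.0011 and -0.0057, below 0 on 4 of 4 arrays, with the value farthest from 0 on array 1. Its fitted value was -0.043 (SE 0.058, limma adjusted p = 0.782), and it was -0.011 without array 1 and -0.074 without array 3. GNA14 was -0.13, 0.030, -0.0069 and 0.0083 by its brighter probe, and its other probe was -0.13, 0.033, 0.00038 and -0.0016. Its fitted value was -0.025 (SE 0.057, limma adjusted p = 0.859). The brighter GNA14 probe was well above background in 4 of 4 OXA readings and 2 of 4 control readings, with uncorrected intensities of 159 to 309. GNAQ had 4 of 4 and 3 of 4, with intensities of 263 to 474. In Agilent's log ratio GNAQ was -0.20 (SE 0.24) and GNA14 was 0.26 (SE 0.27), farther from 0 and with wider errors.

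GNG12, a gamma subunit, was the 1 member of the beta-gamma side. It was -0.010, -0.50, 0.11 and -0.21 on arrays 1 to 4, with 3 arrays below 0 and array 3 above it. The fitted value was -0.15 (SE 0.077, limma adjusted p = 0.763), and without array 2 it was -0.083. Its probe was bright, and its values on the arrays with OXA in Cy3 (2 and 4) lay below those with OXA in Cy5 (1 and 3). The dye coefficient, 0.20, takes up that split, so the SE is small although the spread over arrays was 0.27 (SD, n = 4).

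**Figure D3:**
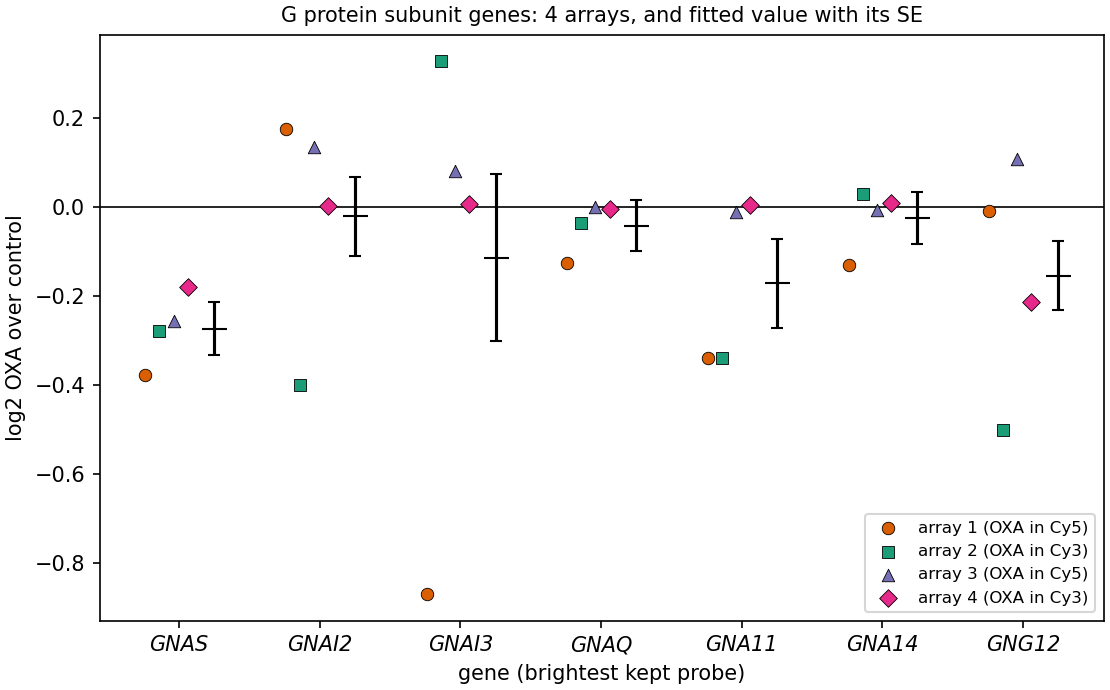
Log2 ratio of OXA over control of the brightest tested probe of each of the 7 subunit genes on each of 4 arrays (symbols), with the fitted value and its SE (bar). After loess all 7 fitted values lie below 0, though with median centring only GNA14 does; they run from -0.27 to -0.021, but only GNAS and GNAQ have all 4 arrays below 0.

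As a group, and after loess only, the 7 subunit genes had fitted values from -0.27 to -0.021 with a median of -0.11, and 7 of 7 were below 0. Among all 2407 named genes tested 57.5% were below 0 and the median was -0.022, and among all probes the median was 0.020. By array the median of the 7 genes was -0.13, -0.28, -0.0011 and 0.0028, so arrays 1 and 2 carried the direction and arrays 3 and 4 did not. For all named genes it was -0.017, -0.076, 0.0096 and 0.00023, also below 0 on arrays 1 and 2 only. Below 0 on 4 of 4 arrays were 2 of 7 genes, GNAS and GNAQ, where 5.86% of named genes were. An unadjusted p under 0.05 in limma was reached by 1 of 7, GNAS, against 3.32% of named genes, and 0 of 7 passed over all probes. Without array 1 the median was -0.032 and 5 of 7 genes were below 0. The 7 genes were picked by name with results for GNAS known, so these counts are a description.

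The direction of the family differed between scalings. With median centring in place of it, 1 of 7 genes (GNA14, -0.049) was below 0 and the median was 0.11. That scaling moved the median of all probes from 0.020 to 0.14, and 4 of 7 genes lay below the shifted median. The brightest GNAS probe was 0.075 there, below the median of all probes, but the 14 GNAS probes ran from 0.050 to 0.30 with a median of 0.22, and 4 of 14 lay below the median of all probes. With Agilent's own log ratio the brightest GNAS probe was -0.27 (SE 0.24) and all 14 probes were below 0 in the fit, while GNA14 (0.26) and GNAI3 (0.035) were above it. On that scale GNAS had -0.49, -0.15, -0.16 and -0.29 on arrays 1 to 4, and 4 of 14 probes were below 0 on all 4 arrays. With OXA read as Cy5 on every array, as the labelling protocol has it, the GNAS probe was -0.044, and GNAI2 (0.18) and GNG12 (0.20) were above 0.

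The median of the epithelial markers had the same order over the arrays as the brightest GNAS probe, lowest on array 1 and highest on array 4. CLDN3, CLDN4 and CDH1 had that order, and CLDN7, KRT8 and EPCAM did not: CLDN7 and KRT8 were lowest on array 2, and EPCAM was higher on array 2 than on array 3. For GNAS the order held for the brightest probe after loess only. The mean over its 14 probes was lowest on array 2 (-0.30). In Agilent's log ratio the brightest probe was highest on array 2 (-0.15) and was -0.29 on array 4. The median ratio of the 6 markers was -0.84, -0.34, -0.0033 and 0.53 on arrays 1 to 4, and their summed intensity after loess was 85521 to 111683 in the OXA-treated RNAs and 70266 to 180038 in the controls. The 3 stromal markers had medians of 1.44, 0.022, 0.080 and 0.26, with sums of 25614 to 73877 and 26878 to 53472. The 6 macrophage and other myeloid markers had 0.60, -0.53, 0.27 and -0.69, above 0 with OXA in Cy5 and below 0 with OXA in Cy3. Medians of the T and NK lymphocyte markers (0.085, -0.28, 0.20 and -0.20) had the same signs. So did those of the smooth muscle markers (0.011, -0.73, 0.18 and -0.11), of which 5 of 5 were below 0 in the fit. The part of these cell types in the subunit values was not tested. In whole tissue, fewer cells of a type and less RNA per cell cannot be told apart.

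The 5 named genes outside the family whose ratios on the 4 arrays lay nearest to those of the brightest GNAS probe were CYBA (a subunit of the NADPH oxidase), FAM216B, APOA1 (the main protein of high-density lipoprotein), LOC595122 and HSPA6 (an inducible heat shock protein). The measure was the root mean square difference over 4 arrays, searched over 2400 genes, and it ran from 0.088 for CYBA to 0.12 for HSPA6. CYBA was -0.23, -0.32, -0.34 and -0.15 on arrays 1 to 4. APOA1 was -0.22, -0.36, -0.27 and -0.24. These directions differed between settings: with median centring CYBA, FAM216B, LOC595122 and HSPA6 were 0.10, 0.25, 0.053 and 0.094 and APOA1 was -0.047, and with OXA read as Cy5 on every array APOA1 was 0.030 and HSPA6 0.0033. With small ratios and 4 arrays such closeness is a description of these arrays.

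Upstream of the subunits, 36 of the 62 listed G protein coupled receptors on the array were bright enough to test. Of these 22 were below 0 and 14 above, with a median of -0.017, beside -0.022 for all named genes, and 0 passed over all probes. The lowest unadjusted p-values belonged to CCR1 (a chemokine receptor, -0.34, SE 0.069), CXCR4 (the receptor of CXCL12, -0.41, SE 0.12) and ACKR3 (an atypical receptor of the same ligand, -0.19, SE 0.082). CXCR4 was below 0 on each array (-0.84, -0.33, -0.23 and -0.22), as was ACKR3 (-0.082, -0.32, -0.31 and -0.060). CCR1 was -0.041 and 0.20 with OXA in Cy5 and -0.75 and -0.79 with OXA in Cy3. Its unadjusted p in limma was 0.00795 with the dye coefficient and 0.16 (SE 0.21) with no dye coefficient, and with OXA read as Cy5 on every array its value was 0.42. With median centring CCR1, CXCR4 and ACKR3 were 0.0062, 0.045 and 0.16. Both orexin receptors, HCRTR1 and HCRTR2, had probes that were too dim to test, and HCRT, the orexin precursor, was 0.013 (SE 0.056), or -0.014 with Agilent's log ratio.

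Among listed regulators of receptors and G proteins, 3 of 4 receptor kinases and arrestins on the array were tested, with a median of -0.056 (2 below 0). GRK2, a kinase that turns off active receptors, was -0.19 (SE 0.14), GRK7 -0.056 and the visual arrestin SAG 0.050. All 6 genes on the array listed as RGS proteins and other G protein regulators were tested, with a median of -0.042 (4 below 0). That list also holds GNL1 and RACK1, which are not RGS proteins. RGS5, a GTPase activator of vessel wall cells, was 0.19 (SE 0.086), GNL1 was -0.24 (SE 0.14), and RGS4, another GTPase activator, was -0.24 (SE 0.15), from -0.71 (array 3) to 0.37 (array 4). In both lists 0 genes had an unadjusted p under 0.05 in limma. With median centring GRK2, GRK7 and RGS4 were 0.18, 0.052 and 0.081 and SAG was -0.032.

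Among genes around cyclic AMP, the only listed adenylyl cyclase with a named probe, ADCY10, was too dim to test. The 3 cyclic AMP phosphodiesterases, which break cyclic AMP down, went both ways: PDE4B was 0.48 (SE 0.27), PDE4A -0.30 (SE 0.18) and PDE3A -0.24 (SE 0.15). PDE4B was 1.03, 0.93, 0.27 and -0.32 on arrays 1 to 4, and its 3 probes ran from -0.079 to 0.48. The 5 probes of PDE4A ran from -0.30 to 0.086. Of 7 tested genes for protein kinase A, its inhibitors and its anchors 6 were above 0, as were 1024 of 2407 named genes. Their median was 0.026, and AKAP10, PRKAR1A and AKAP3, at 0.014 to 0.026, lay within their SEs of 0. The anchors AKAP2 and AKAP9 were 0.24 (SE 0.13) and 0.42 (SE 0.24), and the inhibitor PKIG was -0.23 (SE 0.13). The 3 probes of AKAP9 ran from -0.036 to 0.42. CREB3, the only member of the CREB list tested, was -0.072 (SE 0.12). Of 11 tested genes known to respond to cyclic AMP 8 were below 0 with a median of -0.023, beside -0.022 for all named genes. PPARGC1A, a coactivator of mitochondrial genes, was 0.16 (SE 0.075), FOS was -0.14 (SE 0.094) and PCK1, an enzyme of glucose synthesis, was -0.26 (SE 0.18). None of these genes had an unadjusted p under 0.05 in limma. With median centring PDE4A, PDE3A, FOS, PCK1, PKIG and CREB3 were 0.031, 0.044, 0.015, 0.016, 0.015 and 0.30.

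Downstream of the Gq family, 5 genes of calcium and diacylglycerol signalling were tested, with a median of 0.030 and 3 above 0. DGKA, which removes diacylglycerol, was 0.21 (SE 0.14), the kinase subunit CAMK2D was 0.21 (SE 0.18) and the calmodulin gene CALM3 was -0.11 (SE 0.13), or 0.29 with median centring. No gene of this list had an unadjusted p under 0.05 in limma. DGKA had 0.82 on array 1 and -0.079 to 0.076 on the others.

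**Figure D4:**
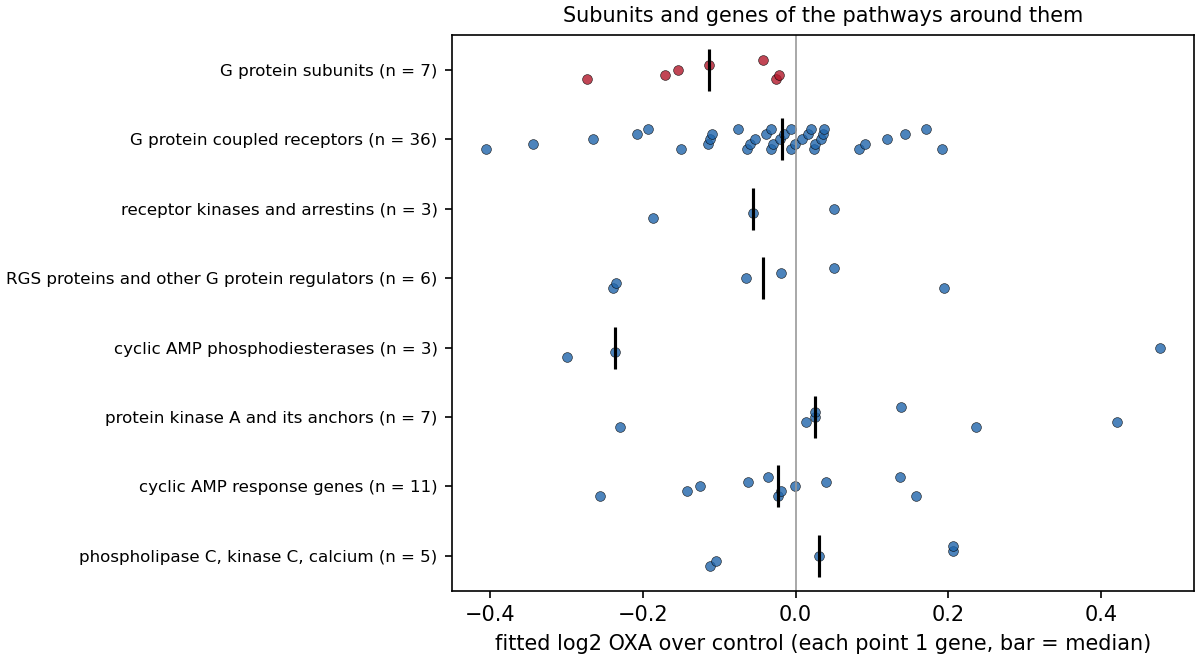
Fitted log2 ratio of OXA over control of each tested gene (points) and the median (bar) for the 7 subunit genes and for lists of genes that act around them. The subunit genes lie from -0.27 to -0.021, and the medians of the other lists run from -0.24 for the 3 phosphodiesterases to 0.030 for calcium signalling.

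Across the ways of processing, the brightest GNAS probe kept a negative value except with median centring, and no version called it. Its value ran from -0.30 to 0.075 over the 17 alternatives and its adjusted p from 0.159 to 1.00. The unadjusted p was 0.0109 as reported, 0.00383 with no dye coefficient, 0.101 with no background correction, 0.161 when the spread was allowed to vary with brightness, and 0.282 with Agilent's log ratio. Alternatives that changed only the probe filter, the dye coefficient, the error model or the scale of brightness left the value of the brightest probe at -0.27. The authors' table repeats Agilent's log ratio, so these alternatives add no separate support for the direction. The median of the GNAS probes was closest to 0 without array 2, at -0.034, and farthest below it without array 4, at -0.22.

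**Figure D5:**
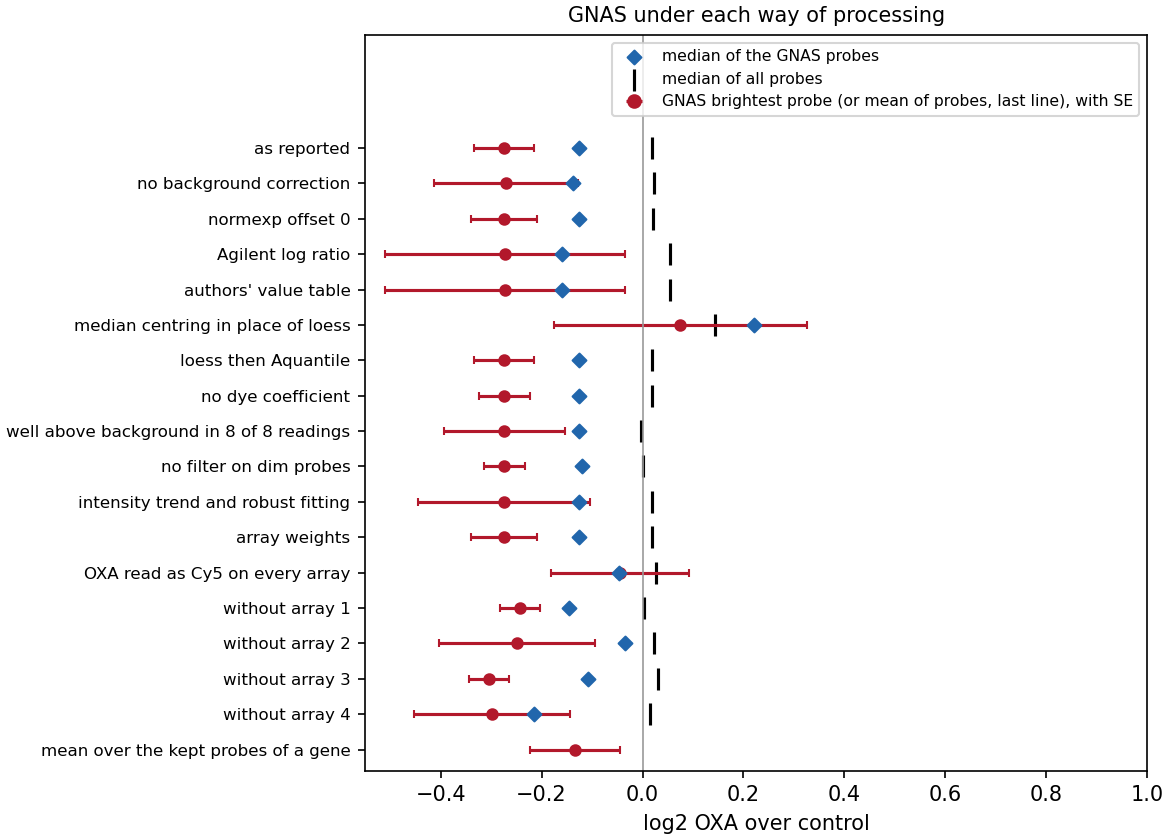
Log2 ratio of OXA over control of the brightest GNAS probe with its SE (circles), the median of the tested GNAS probes (diamonds) and the median of all probes (bars), as reported and under each of 17 alternatives; the last line is the mean over the GNAS probes. The circles stay between -0.30 and -0.24 for most alternatives and move to -0.044 with OXA read as Cy5 on every array and to 0.075 with median centring. Changes of only the probe filter, dye coefficient, error model or brightness scale left the circle where it was as reported. The authors' table repeats Agilent's log ratio.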

How the data were processed

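RNA of OXA-treated and control endometrium was compared on 4 Agilent 2-colour arrays. The deposited scanner files hold each spot's median intensity and local background in both dyes, which per the file headers came from version 10.7.3.1 of Agilent Feature Extraction. Their deposited log10 ratio sets Cy5 against Cy3 after background subtraction and dye normalization by that software. The deposited value table holds log2 ratios. Set against the scanner ratios over 43420 probes, its columns had slopes of 1.06, -1.00, 1.04 and -1.03, which gives OXA over control under the sample labels. Its medians were -0.17, 0.06, -0.06 and 0.09, and its centring is unknown.

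Median intensities were corrected by normexp (offset 50), normalized by loess and fitted in limma 3.58.1 (R 4.3.3) with an OXA and a dye coefficient, leaving 2 residual degrees of freedom (3.88 after moderation). Control and outlier spots were left out and replicate spots averaged. Probes well above background in at least 4 of 8 readings were kept, and 135 were lost to outlier spots. All 26927 probes entered the Benjamini-Hochberg adjustment. A gene's brightest kept probe stands for it. Names came from the RefSeq accessions of 7125 probes, and 6700 of these probes were matched to assembly Sscrofa11.1. No coordinates are printed, since neither headers nor labels name a genome build for the array. The fit was tested on simulated data with independent noise and with changes larger than any subunit value here. That test does not show how the fit performs for values this small.

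Members and lists were chosen with earlier results of these data known. Values on 4 arrays were to be given for GNAS and for members of one sign on 4 arrays, with an unadjusted p under 0.05 or with a log2 value of at least 0.2, and the other members were added because they are few. Each list names up to 3 genes by lowest unadjusted p, besides HCRT and its receptors, and the 5 genes nearest to GNAS are named.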

Additional observations from a re-analysis of the deposited data

Results flagged for a closer look

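In 2 of 36 sets of 4 array values checked over the subunit genes and the other named genes, 1 array lay far from the other 3, where chance marks about 1 set in 20. PCK1 was -1.01 on array 1, and arrays 2 to 4 gave -0.039 to 0.056. SAG was 0.21 on array 1, and arrays 2 to 4 gave -0.011 to 0.0030. Array 1 is the one on its own slide. No subunit gene was among them.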

How the results depend on the processing

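Over 17 alternatives no subunit gene and no other named gene passed an adjusted p of 0.05 (genes lacking 8 of 8 readings well above background had no value in that one). With the mean over a gene's probes, the adjustment ran over named genes only. Median centring turned the brightest GNAS probe to 0.075 and the median of the 7 genes to 0.11. Members turned too: with median centring GNA11 was 0.11, GNAI2 0.32, GNAI3 0.24, GNAQ 0.053 and GNG12 0.20; with OXA read as Cy5 on every array GNAI2 was 0.18 and GNG12 0.20; with Agilent's log ratio GNA14 was 0.26 and GNAI3 0.035, and the authors' table gave the same values. Leaving out 1 array gave -0.30 to -0.24 for GNAS, -0.18 to -0.032 for the median of the genes, -0.26 to -0.086 for GNA11, -0.23 to -0.083 for GNG12, -0.074 to -0.011 for GNAQ, -0.056 to 0.0061 for GNA14, -0.35 to 0.12 for GNAI3 (both above 0 without array 1) and -0.12 to 0.079 for GNAI2 (above 0 without array 2). Arrays 2 to 4 share a slide, so leaving out array 1 is the value within it, -0.24 for GNAS.

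Probes passing over all probes numbered 0 in each alternative but 6 without array 4, with a range of 0 to 6 over left-out arrays. Probes at an unadjusted p under 0.05 numbered 500, against 1406 with no background correction, 1829 with Agilent's log ratio, 1824 with the authors' table, 4527 with median centring, 265 with an intensity trend, 293 with array weights, 1047 with OXA read as Cy5, and 295 to 8031 with 1 array left out (8031 without array 3). The causes were not tested.

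Of other named genes, these turned with median centring: CREB3 0.30, PDE4A 0.031, PDE3A 0.044, FOS 0.015, PCK1 0.016, CCR1 0.0062, CXCR4 0.045, ACKR3 0.16, CALM3 0.29, PKIG 0.015, GRK2 0.18, GRK7 0.052, SAG -0.032, RGS4 0.081, CYBA 0.10, FAM216B 0.25, LOC595122 0.053 and HSPA6 0.094. With OXA read as Cy5 these were CREB3 0.094, PDE4A 0.019, CCR1 0.42, CALM3 0.28, PKIG 0.11, GRK2 0.11, APOA1 0.030 and HSPA6 0.0033. HCRT was -0.014 in the authors' table as in Agilent's log ratio, and SAG -0.063 with no filter. Without array 1 HCRT was -0.0084 and SAG -0.0054. Leaving out 1 array gave -0.21 to 0.066 for CREB3, -0.27 to 0.040 for CALM3 and -0.028 to 0.44 for CAMK2D. GNA14 and GNAQ lacked readings well above background, which limits their ratios.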
